A study of Mus musculus with 18 samples.

Results

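The genes described here encode the subunits of the constitutive proteasome and were followed in brain RNA of young and old mice given apigenin or vehicle. They were chosen by name: 39 gene symbols in the table matched Psma, Psmb, Psmc or Psmd followed by a number, 37 were left without the immune-induced subunits Psmb8 and Psmb9, and 36 of these had a mean normalised read count of at least 10. These 36 members, out of 15808 genes tested and 24405 genes in the table, comprise 16 core members (8 Psma and 8 Psmb genes) and 20 regulatory members (6 Psmc and 14 Psmd genes). The mice were given as male C57BL/6N, aged 6 months (young) or 27 months (old). They drank apigenin, a plant flavone, at 0.5 mg/mL in water with 0.2% carboxymethylcellulose, or that water alone (vehicle), so every group received the carboxymethylcellulose. Nnt, Gabra2 and Wdfy1, known to differ between C57BL/6 substrains, differed between old and young vehicle mice, as given below. In the age comparisons substrain and age therefore cannot be told apart. Each library held polyadenylated RNA of 1 whole brain per the labels, and those used number 4 for young mice on vehicle, 3 for young mice on apigenin, and 5 for each arm of the old mice. Young apigenin replicate 3 was left out because its values were displaced by 1 row against the names of the members.

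The proteasome degrades proteins tagged with ubiquitin. Its core particle is a stack of rings: outer rings of alpha subunits (Psma genes) gate the entry, and inner rings of beta subunits (Psmb genes) hold the proteolytic sites. The regulatory particle caps the core. Its base contains a ring of ATPases (Psmc genes) that unfolds substrates, with scaffolds and ubiquitin receptors, and its lid (most Psmd genes) removes ubiquitin. In brain the proteasome is known for clearing damaged proteins and for turnover at synapses. When it is inhibited, the transcription factor Nfe2l1 raises many subunit genes together through the antioxidant response element.

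The label did not cover all members. Psmb10 is a catalytic subunit of the immunoproteasome, Psma8 is known as a testis alpha subunit, and Psmd5, Psmd9 and Psmd10 encode chaperones that assemble the base and do not remain in the finished particle. The threshold on the mean separated Psma8, with a mean of 11.4 and a range of 4.36 to 17.7, from Psmb11, a thymus subunit with a mean of 4.63 and a range of 0 to 17.4. All 36 members were found in the GENCODE M21 annotation of mouse build GRCm38. For 14 members this annotation has an overlapping gene on the opposite strand, and since the use of strand in counting is not given in the sources used here, reads of the pair cannot be told apart. Pseudogenes of Psmb5, Psmb6 and Psmb7 are annotated and had no row of their own, so the values of these 3 genes are uncertain in that respect.

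Promoter sequences are shown because members that vary together, as below, may be compared for shared letters. RefSeq promoters on GRCm38.p6, each with 250 bases before and 50 after the start, were matched to 29 of the 36 members (12 core, 17 regulatory) and gave 31 sequences. The letters TGACNNNGC, the core of the antioxidant response element, searched on both strands, occurred in 5 of the 31 (16.1%) and in 12.4% of all 32851 promoters. Among the members with this match are Psmd9, which rose with age, and the catalytic subunits Psmb5 and Psmb6. Capitals mark the match and the rest is flanking sequence, 5′ to 3′ on the strand of the gene.
Psmd9, chr5:123228139-123228187, plus strand: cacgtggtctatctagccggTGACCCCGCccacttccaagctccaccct
Psmb5, chr14:54618014-54618062, minus strand: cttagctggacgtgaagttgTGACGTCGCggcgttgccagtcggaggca
Psmb6, chr11:70525328-70525356, plus strand: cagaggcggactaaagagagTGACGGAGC
The match began at -31 from the start of Psmd9, at -47 in Psmb5 and at -9 in Psmb6. Psmc6 and Psmd12 carried it on the opposite strand, at -227 and -247. For Psmb6 the RefSeq gene begins at 70525324, upstream of the printed bases, so its offset counts from a start farther downstream.

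The letters CCAAT, the box bound by NF-Y, occurred on either strand in 11 of the 31 member promoters (35.5%) and in 37.4% of all promoters. The alpha subunit gene Psma6 and the ATPase gene Psmc2 are printed as a core and a regulatory example with the box close to the start, at -29 and -28.
Psma6, chr12:55384173-55384217, plus strand: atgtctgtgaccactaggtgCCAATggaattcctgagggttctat
Psmc2, chr5:21785227-21785271, plus strand: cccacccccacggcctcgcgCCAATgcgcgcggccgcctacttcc
The letters TATAAA occurred in 3 member promoters (9.68%) against 13.6% of all. For each of the 3 motifs the share in members was near that in all promoters. In 0 of the 31 member promoters did matches to any 2 of the motifs overlap, and a match describes letters, not binding.

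Libraries held 28171596 to 41145635 reads assigned to genes. Values are normalised read counts, and a difference is between group means of log2(value + 1), so that for low genes the change is understated. Each library is 1 mouse per the labels, so p-values measure the spread between mice. The brain label was checked with 31 measured markers of neurons and glia. The lowest value of any of them was 106 (Aif1 of microglia), while Cdx2 of intestine was at 0 in all 17 libraries and Umod of kidney was at most 4.36. The other non-brain markers on the list were not absent. Albumin (Alb) varied from 0.94 to 914, Apoa2 from 15.5 to 103, Myh6 from 24.5 to 168 and Ins2 from 0 to 12. Hoxb5, of hindbrain and spinal cord, varied from 0 to 293, and the hindbrain marker Slc6a5 from 7.24 to 582. The markers thus did not show that every library held a whole brain, and this was not tested.

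Levels were compared between members per kilobase of the longest principal transcript, and the ranking rests on that choice of length. Core members had a median of 1999 normalised reads per kilobase and regulatory members 1858, against 257 over all tested genes. Psmb6, the caspase-like catalytic subunit (chromosome 11, 70525367 to 70527858), was highest with 5089 per kilobase. The ATPase genes Psmc5 and Psmc1 followed with 4665 and 3663. Psma8 was lowest with 6.75, and the next lowest were the assembly chaperones Psmd5, Psmd10 and Psmd9 with 301, 308 and 369. All 3 chaperones thus lay below every other member except Psma8. In the alpha ring the level per kilobase ranged from 696 in Psma3 to 3140 in Psma7, leaving Psma8 aside, and in the beta ring from 1755 in Psmb5 to 5089 in Psmb6. The inducible Psmb10 had 707, against 105 for Psmb8 and 44.8 for Psmb9.

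**Figure D1:**
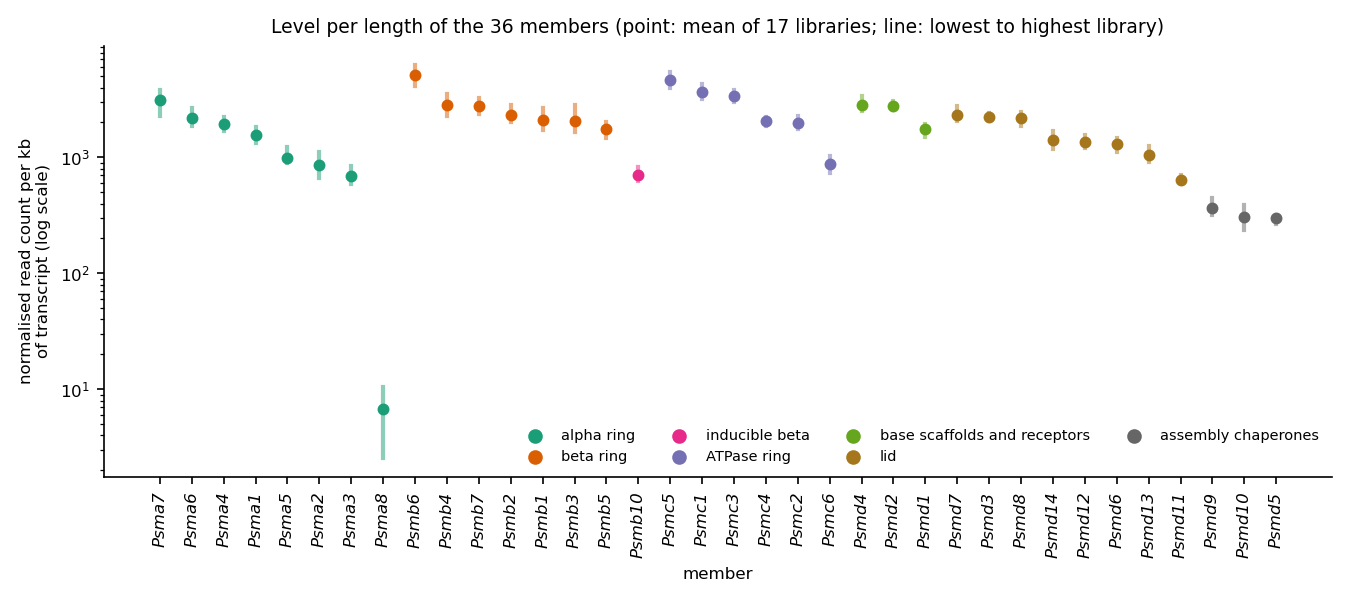
Mean normalised read count per kilobase of the longest principal transcript for the 36 members (points, log axis), with the lowest and highest of the 17 libraries as a line, ordered by subcomplex. Psmb6 was highest at 5089, the 3 assembly chaperones lay between 301 and 369, and Psma8 lay at 6.75.

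Psma8 was close to its counting limit. Its normalised read counts were 6.52, 10.2, 12.2 and 8.02 in young vehicle mice, 4.36, 10.3 and 11.2 in young apigenin mice, 6.86, 15.9, 10.6, 16.7 and 10.8 in old vehicle mice, and 14.6, 14.3, 13.4, 10.4 and 17.7 in old apigenin mice, in order of replicate number (1, 2 and 4 in young apigenin mice), as for all values below. These ranges overlapped between all groups, and its largest difference, 0.72 ± 0.35 (SE) with age in apigenin mice, did not pass (adjusted p = 0.378, limma). Its SD within groups, 0.43 on the log2 scale, was no larger than the 0.46 that counting alone gives at this depth. For the other 35 members the SD within groups was 1.5 (Psmd11) to 7.51 (Psmc5) times the counting SD, so the differences between mice described below were larger than counting error.

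The comparison of old with young vehicle mice asks how proteasome transcripts differ in the aged brain. No member passed an adjusted p of 0.05 (limma with Benjamini-Hochberg adjustment over all 15808 genes, as in all tests below), where 3.93% of all genes did. By unadjusted p under 0.05, 3 of 36 members (Psma7, Psmc6 and Psmd9) stood against 19.4% of all genes, which is below the background. edgeR and DESeq2 on recovered reads also called 0 core and 0 regulatory members. The median difference was 0.07 over core and 0.03 over regulatory members, beside 0.04 over all tested genes. Log2 differences lay above 0 for 23 of 36 members, or 63.9%, against 59% of all genes. That count was 19 with edgeR or DESeq2. Without old vehicle replicate 2 the count was 17 of 36 and the core and regulatory medians were 0.02 and -0.0031, while without old vehicle replicate 4 they were 0.12 and 0.05. Over all fits without 1 library the core median was 0.02 to 0.12 and the regulatory median -0.0031 to 0.06. Leaving Psma8 aside, the 95% intervals of the members reached from 0.813-fold to 1.38-fold.

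The 3 constitutive catalytic subunits gave overlapping values in young and old mice. Psmb5, the chymotrypsin-like subunit (chromosome 14, 54614119 to 54618022), had 1599.9, 1505, 1477 and 1495 in young vehicle mice, and 1622, 1798, 1611, 1331 and 1512 in old vehicle mice. Psmb6 had 3939, 3866, 4062 and 4151 in young vehicle mice, and 3876, 4662, 3969, 3312 and 3661 in old vehicle mice. Psmb7, the trypsin-like subunit (chromosome 2, 38588036 to 38644087), had 3190.0, 2836, 3225 and 3526 in young vehicle mice, and 3093, 3709, 3255, 2751 and 3027 in old vehicle mice. For each of them the old mice enclosed or overlapped the range of the young, with replicate 2 highest and replicate 4 lowest among the old. The log2 differences were 0.05 ± 0.09 (SE) for Psmb5, -0.05 ± 0.10 for Psmb6 and -0.02 ± 0.09 for Psmb7, and their adjusted p-values were 0.812, 0.832 and 0.948. In apigenin mice Psmb5 had 1671, 1518 and 1552 in young apigenin mice, and 1709.7, 1516, 1812, 1717 and 1376 in old apigenin mice. Psmb6 had 4431, 4092 and 3874 in young apigenin mice, and 4305, 4098, 4434, 4982 and 3323 in old apigenin mice, and Psmb7 had 3564, 3174 and 3018 in young apigenin mice, and 3442, 3270.0, 3304, 3775 and 2836 in old apigenin mice. There too the ranges overlapped, and the age differences were 0.04, 0.02 and 0.03.

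Of the induced subunits that replace these in the immunoproteasome, Psmb8 rose with age in both arms and Psmb9 in vehicle mice. Psmb8 (chromosome 17, 34197721 to 34201454) had 106, 113, 97.3 and 80.2 in young vehicle mice, and 187, 239, 165, 209.6 and 194 in old vehicle mice. It rose 1.99-fold in vehicle mice (adjusted p = 0.00154, limma). In apigenin mice it had 131, 89.2 and 102 in young apigenin mice, and 250.3, 212, 213, 316 and 197 in old apigenin mice and rose 2.19-fold (adjusted p = 0.00131). Every old library lay above every young library. Psmb9 (chromosome 17, 34181987 to 34187764) had 48.1, 23.5, 33.5 and 34.4 in young vehicle mice, and 77.5, 81.4, 53.9, 90.5 and 72.7 in old vehicle mice, with all old above all young, and rose 2.16-fold (adjusted p = 0.0192). Without young vehicle replicate 2 or 3 its adjusted p was 0.0784 or 0.0516. In apigenin mice Psmb9 had 28.4, 34.9 and 52.7 in young apigenin mice, and 79.6, 57.2, 72.4, 124 and 65.9 in old apigenin mice, a 2.03-fold difference that did not pass (adjusted p = 0.0651, limma). It passed with DESeq2 (adjusted p = 0.0163), with the replicate number as a block (0.0412) and without young apigenin replicate 4 (0.0485).

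The third induced subunit, Psmb10 (chromosome 8, 105935735 to 105938444), gave smaller differences. Its values were 814, 875, 859.8 and 882 in young vehicle mice, 935, 949 and 856 in young apigenin mice, 909.8, 1082, 946, 813 and 929 in old vehicle mice, and 1083, 903, 1041, 1061 and 821 in old apigenin mice. The groups overlapped. Its log2 difference with age was 0.12 ± 0.09 (SE; adjusted p = 0.484) in vehicle mice and 0.10 ± 0.10 (adjusted p = 0.715) in apigenin mice. Per its deviations within groups Psmb10 followed the other core members (r = 0.83 with their mean, 17 libraries). Markers of microglia rose with age for 2 of 8 genes in vehicle mice, where 3.93% of all genes passed. In apigenin mice 3 of 8 rose, where 1.76% passed, and none of the 8 was at 0. Their mean log2 level was 10.15 to 10.29 in young and 10.34 to 10.45 in old vehicle mice, and 10.19 to 10.28 in young and 10.25 to 10.71 in old apigenin mice. The part of these cells in the values of Psmb8 and Psmb9 was not tested, and in bulk tissue more cells of a type and more RNA per cell cannot be told apart.

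Psmd9, the assembly chaperone known as p27 (chromosome 5, 123228190 to 123250126 in RefSeq), was the only member called in any comparison of the 17 libraries. It had 843, 858, 839 and 922 in young vehicle mice, and 959.8, 1090.1, 1031, 954 and 948 in old vehicle mice. It had 886, 871 and 824 in young apigenin mice, and 1002, 1103, 1041, 1167 and 964 in old apigenin mice. In both arms every old library lay above every young one, with the narrowest gap between old vehicle replicate 5 and young vehicle replicate 4. Among all genes the old group lay wholly above the young for 6.62% in vehicle and 6.1% in apigenin mice. The difference was 0.20 ± 0.07 (SE) in vehicle mice and did not pass (adjusted p = 0.0979). In apigenin mice it was 0.29 ± 0.07, 1.22-fold, and passed with an adjusted p of 0.0455, where 1.76% of all genes passed.

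The mean of both age differences of Psmd9, which uses all 17 libraries, was 0.25 ± 0.05 (SE), 1.19-fold (adjusted p = 0.00354). In this pooled comparison 12.1% of all genes passed, and 1 of 36 members did. The differences of 29 members were above 0, against 55.1% of all genes, and those of 24 members with edgeR or DESeq2. Ribosomal protein genes gave 79 of 81 above 0 in the same comparison. Psmd9 passed without any single library, with adjusted p-values of 0.002 to 0.0137 (limma), and under all 9 other settings tried. The call within apigenin mice was lost in 14 of 17 fits that left out 1 library, with adjusted p up to 0.217. It was also lost with edgeR (adjusted p = 0.0693). The age differences of both arms differed by 0.09 ± 0.10 (SE; adjusted p = 1, limma), so a difference of the age effect between arms was not shown. In the GENCODE annotation the Psmd9 gene model starts farther upstream, at 123169413, and a gene on the opposite strand overlaps it.

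**Figure D2:**
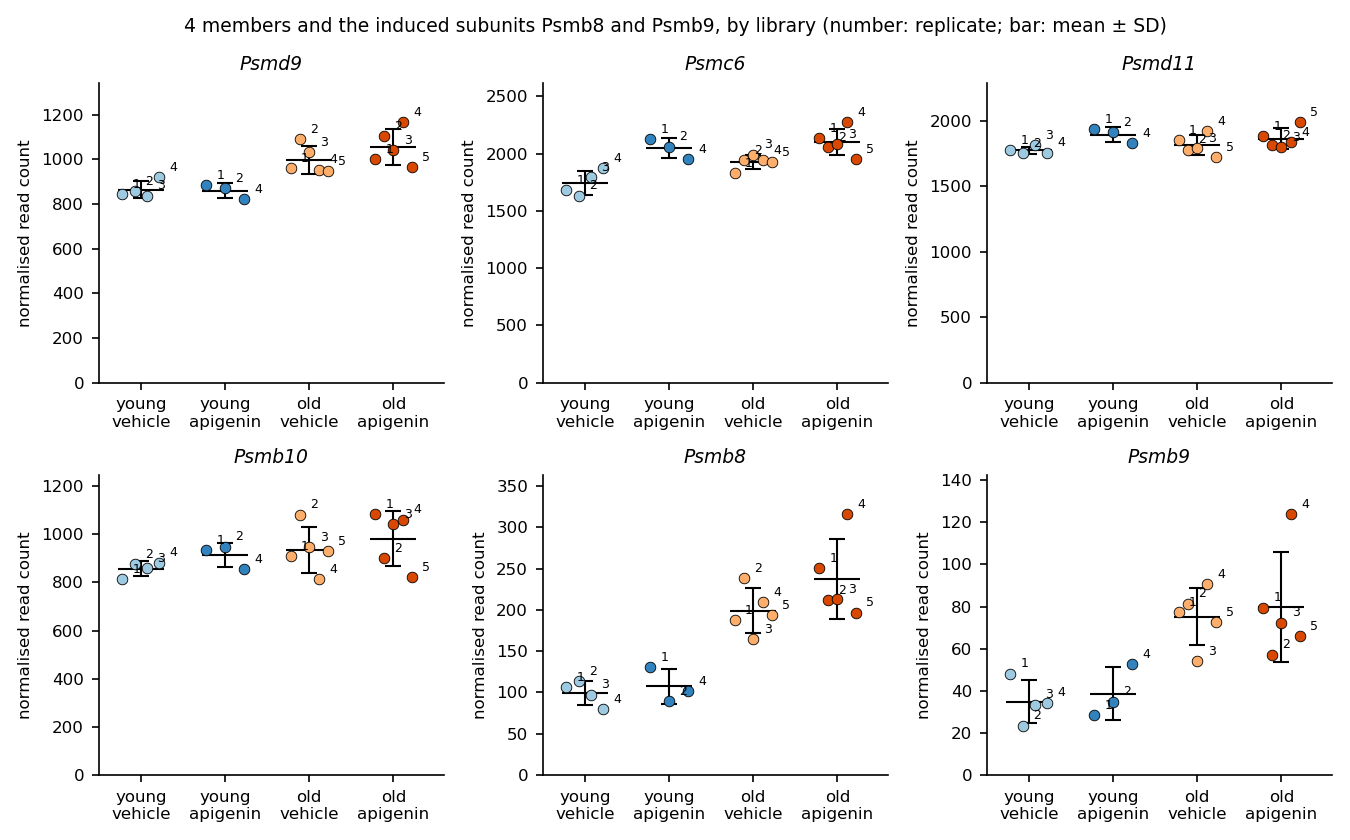
Normalised read counts in the 17 libraries for Psmd9, Psmc6, Psmd11 and Psmb10 and for the induced subunits Psmb8 and Psmb9; points are libraries with their replicate number, bars are group means ± SD. For Psmd9, Psmb8 and Psmb9 all old libraries lie above all young libraries of their arm, whereas Psmb10 overlaps.

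The other members with the smallest p in the age comparisons gave overlapping groups. Psma7, an alpha subunit (chromosome 2, 180036374 to 180042433), had 2576, 2067, 2589.6 and 2832 in young vehicle mice, and 2852, 3469, 2927, 2684 and 2796 in old vehicle mice. Young replicate 2 was lowest and old replicate 2 highest. Its difference was 0.23 ± 0.09 (SE; unadjusted p = 0.0255, adjusted p = 0.185). Psmb3, a beta subunit without a catalytic site, had 1417, 1279, 1531 and 1419.6 in young vehicle mice, and 1604, 2148, 1678, 1267 and 1561 in old vehicle mice. Old vehicle mice enclosed the young range, from replicate 4 to replicate 2, and the adjusted p was 0.358. In apigenin mice Psmb3 had 1643, 1452 and 1417 in young apigenin mice, and 1798, 1702, 1816, 1933 and 1376 in old apigenin mice. Psma3, an alpha subunit, had 1881, 1692, 1842 and 1816 in young vehicle mice, and 1936, 2129.6, 1998, 2032 and 1862 in old vehicle mice. Its ranges overlapped by old replicate 5 alone, and the adjusted p was 0.263.

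Of the regulatory members, Psmd8, a lid subunit, had the lowest difference with age. It had 3453, 3398, 3570.1 and 3563 in young vehicle mice, and 3315, 3511, 3163, 2852 and 3061 in old vehicle mice. Young replicates 3 and 4 lay above all old libraries and the other 2 within the old range, and the difference was -0.14 ± 0.08 (SE; adjusted p = 0.324). In apigenin mice it had 3727, 3466 and 3205 in young apigenin mice, and 3314, 3069.6, 3492, 3795 and 2887 in old apigenin mice, again overlapping. Psmd14, the lid deubiquitinase that releases ubiquitin chains, had 2038, 1805, 2135 and 2202 in young vehicle mice, and 2098, 2347, 2245, 2041 and 2035 in old vehicle mice. It had 2346, 2031 and 1979 in young apigenin mice, and 2423, 2337, 2418, 2605 and 2082 in old apigenin mice. These ranges overlapped in both arms, with adjusted p-values of 0.624 and 0.389.

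In apigenin mice the age comparison gave 30 of 36 members above 0 (83.3%), against 49.8% of all genes, and also 30 with edgeR or DESeq2. Ribosomal protein genes gave 79 of 81, genes of the chaperonin CCT 6 of 8 and oxidative phosphorylation genes 52 of 77 above 0. The members varied together from mouse to mouse, as given below, so the count is not 36 separate observations. By unadjusted p under 0.05, 3 members (Psmb4, Psmd9 and Psmd13) stood against 13.9% of all genes. The medians were 0.10 over core and 0.06 over regulatory members, beside 0.00 over all genes. Without old apigenin replicate 4 the count was 26, and without young apigenin replicate 4 it was 25. Over all fits without 1 library the core median was 0.06 to 0.16 and the regulatory median 0.03 to 0.10. Psmb4, a beta subunit, had 3435, 2939.9 and 2982 in young apigenin mice, and 3903, 3446, 3878, 4141 and 3108 in old apigenin mice, and in vehicle mice 3096, 2694, 3157 and 3181.8 in young vehicle mice, and 3385, 4018, 3379.5, 2840.4 and 3294 in old vehicle mice. Old replicate 5 fell within the young range, and the difference in apigenin mice was 0.24 ± 0.10 (SE; adjusted p = 0.299). Psmd13, a lid subunit, had 2038, 2053 and 1815 in young apigenin mice, and 2345, 2148, 2483, 2405 and 2008 in old apigenin mice, with old replicate 5 again inside the young range (adjusted p = 0.265). In vehicle mice it had 1977, 1931, 1859 and 2061 in young vehicle mice, and 2077, 2459.9, 2137, 1885 and 2004 in old vehicle mice. In the pooled age comparison 9 of 36 members had an unadjusted p under 0.05, against 27.1% of all genes.

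Age groups also differed in ways other than these genes. Markers of oligodendrocytes rose for 5 of 7 genes in vehicle mice, where 3.93% of all genes passed, and for 2 of 7 in apigenin mice, where 1.76% did. In vehicle mice they had mean log2 levels of 12.82 to 13.24 in young and 13.37 to 13.60 in old mice. Of 6 choroid plexus markers 0 passed in either arm, although their mean log2 level was 9.73 to 9.89 in young and 8.93 to 9.57 in old vehicle mice. Of 9 neuron markers 1 fell in vehicle mice, with a median of -0.11, and 0 passed in apigenin mice. Of 7 astrocyte markers 1 rose in each arm, with medians of -0.03 and -0.05. The 9 hindbrain markers had a median of -2.89 in vehicle and -0.51 in apigenin mice. None of them passed, but 7 had an unadjusted p under 0.05 (limma) in vehicle mice, against 19.4% of all genes. Their mean log2 level was 5.47 to 6.89 in young and 1.46 to 6.78 in old vehicle mice. Nnt, Gabra2 and Wdfy1, genes known to differ between C57BL/6 substrains, had log2 differences of -1.20, -1.76 and -1.99 between old and young vehicle mice, so substrain and age cannot be told apart. The part of cell types, brain region or substrain in the member values was not tested.

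Whether apigenin altered proteasome transcripts was read within each age. In old mice no member passed, and 0% of all genes passed in limma and in edgeR or DESeq2. By unadjusted p under 0.05 there were 381 genes (2.41%), among them 1 member, Psmc6. The differences of all 36 members were above 0, from 0.00 to 0.24, where 52.7% of all genes lay above 0. In all 36 members the groups overlapped, and no member had every apigenin library above every vehicle library, against 0.24% of all genes. The median was 0.09 over core and 0.05 over regulatory members, beside 0.01 over all genes. Without Psma8 the 95% intervals spanned 0.893-fold to 1.27-fold, so larger changes of a single member lay outside them.

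The common direction is not 36 separate observations, since the members varied together from mouse to mouse, as given below. Without old vehicle replicate 4, which was low, 31 members were above 0, and the median was 0.04 in place of 0.07. Without old apigenin replicate 4, which was high, 33 were, with a median of 0.03. Without old apigenin replicate 5 or old vehicle replicate 2, 36 of 36 were above 0, with medians of 0.12 and 0.11. With edgeR or DESeq2 35 of 36 were above 0. Ribosomal protein genes gave 79 of 81 and oxidative phosphorylation genes 73 of 77 above 0 in the same comparison.

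The alpha subunits Psma2 and Psma5 and the beta subunit Psmb2 were the core members with the smallest p in old mice. Psma2 had 2431, 2969.8, 2496, 2241 and 2292 in old vehicle mice, and 2763, 2683, 2695, 3237 and 2342 in old apigenin mice. Psma5 had 1209, 1183, 1165, 1135 and 1178 in old vehicle mice, and 1319, 1243, 1276, 1526 and 1105 in old apigenin mice. Psmb2 had 1873, 2136, 1969.5, 1724 and 1868 in old vehicle mice, and 2196, 2026, 2143, 2417 and 1752 in old apigenin mice. For Psma5 the vehicle mice lay in a narrow range with 4 of the 5 apigenin mice above it and replicate 5 below it. The unadjusted p-values were 0.149, 0.0809 and 0.0836, and each adjusted p was 0.986. In young mice Psma2 had 2257, 1917, 2291 and 2529 in young vehicle mice, and 2777, 2334 and 2337 in young apigenin mice. Psma5 had 1198, 1137, 1161 and 1262 in young vehicle mice, and 1404, 1199 and 1233 in young apigenin mice. Psmb2 had 1855, 1921, 1928 and 1987 in young vehicle mice, and 2035, 1892 and 1929 in young apigenin mice. In young mice too the arms overlapped for these 3 members.

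Psmc6, an ATPase of the base (chromosome 14, 45329788 to 45349705), had the smallest p among members in both apigenin comparisons. It had 1828, 1939.6, 1991, 1942 and 1928 in old vehicle mice, and 2135, 2059, 2082, 2274 and 1953 in old apigenin mice and 1681, 1634, 1794 and 1869.9 in young vehicle mice, and 2125, 2059.8 and 1950.3 in young apigenin mice. All 3 young apigenin libraries lay above the 4 young vehicle libraries. In old mice 4 of the 5 apigenin libraries lay above all vehicle libraries, and replicate 5 lay among them. The differences were 0.12 ± 0.05 (SE; unadjusted p = 0.0296, adjusted p = 0.986) in old and 0.23 ± 0.06 (unadjusted p = 0.00192, adjusted p = 0.999) in young mice, and neither passed under any setting tried. Over all settings the adjusted p was 0.462 to 1 in old and 0.884 to 1 in young mice.

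In young mice no member and 0% of all genes passed in limma and edgeR, and DESeq2 called 1 gene, no member. By unadjusted p under 0.05 there were 490 genes (3.1%) and 1 member. Core members lay above 0 for 15 of 16 and regulatory members for 10 of 20, against 63.8% of all genes. The medians were 0.07 and -0.00, beside 0.04 over all genes. Young apigenin replicate 1 decided this count: without it 13 of 36 members were above 0, with a median of -0.02 in place of 0.05. With edgeR or DESeq2 20 of 36 were above 0. Psmc6 and Psmd11 were the 2 members whose apigenin libraries all lay above the vehicle libraries, as did 5.98% of all genes. Psmd11, a lid subunit (chromosome 11, 80428615 to 80473248), had 1775, 1749.9, 1811 and 1756 in young vehicle mice, and 1938, 1912 and 1828 in young apigenin mice and, in old mice, 1850.0, 1778, 1789, 1919 and 1719.6 in old vehicle mice, and 1882, 1811, 1799, 1835 and 1989 in old apigenin mice. In old mice these overlapped, and the difference in young mice was 0.09 ± 0.05 (SE; adjusted p = 0.999).

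Psma7 had 3041, 2682 and 2679 in young apigenin mice and 3329, 3055, 2996, 3507 and 2703 in old apigenin mice. The young apigenin libraries overlapped the young vehicle range given above. Psma3 had 2155, 1867 and 1928 in young apigenin mice and 2068, 2021, 2173, 2382 and 1889 in old apigenin mice, of which 2 young libraries exceeded the 1881 of the highest young vehicle library. Psmd5, a chaperone that binds the ATPase Psmc2, had 1179, 1216, 1326 and 1300.5 in young vehicle mice, 1347, 1323 and 1304 in young apigenin mice, 1358, 1402, 1412, 1273 and 1237 in old vehicle mice, and 1401, 1414, 1327, 1374 and 1306 in old apigenin mice. All 3 adjusted p-values between young arms were 0.999. No member passed for the interaction of age and apigenin, nor did any gene (0%) in limma, edgeR or DESeq2, and 24 of 36 members lay above 0, against 40.6% of all genes. That count was 17 without old apigenin replicate 4, and 31 without old vehicle replicate 2 or without young apigenin replicate 1. For the interaction 0 members and 196 genes (1.24%) had an unadjusted p under 0.05. These comparisons share libraries and are not independent of each other.

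**Figure D3:**
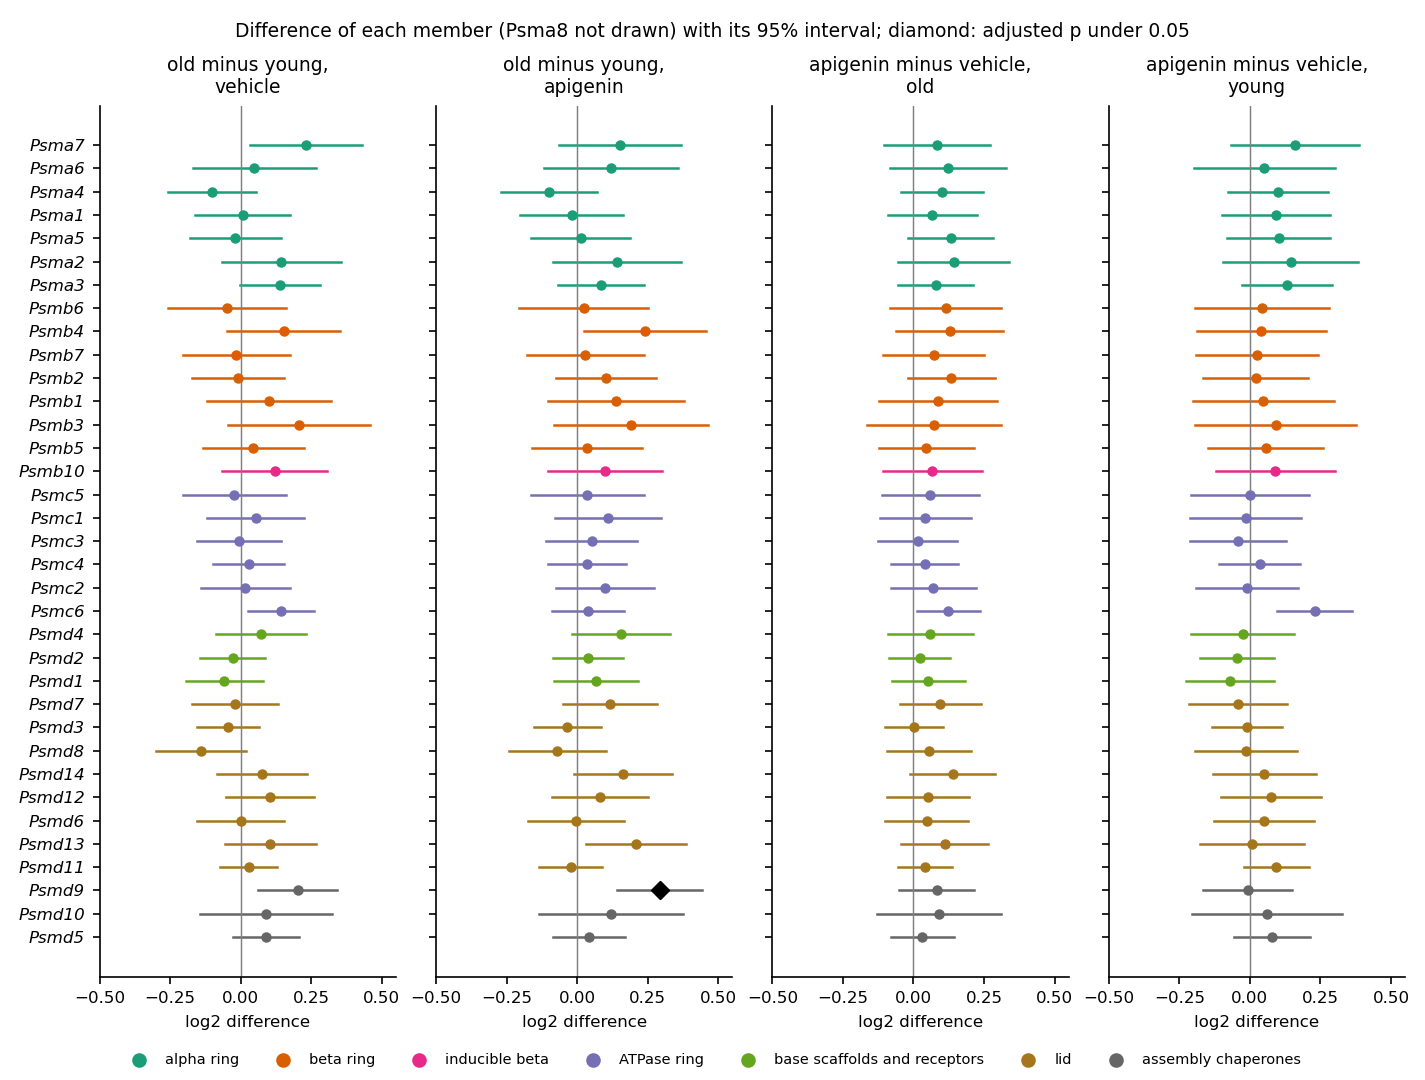
Log2 difference with its 95% interval for 35 members (Psma8 is left out for its wide interval) in the 4 comparisons of 2 groups, coloured by subcomplex. Psmd9 with age in apigenin mice (black diamond, 0.29) is the 1 difference that passed; in old mice all points for apigenin lie at or right of 0 with intervals that mostly include it.

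The rule asked for core against regulatory members over the 4 groups. The mean log2 level of the core members was 10.53 ± 0.07 (SD, n = 4) in young vehicle, 10.59 ± 0.05 (n = 3) in young apigenin, 10.61 ± 0.14 (n = 5) in old vehicle and 10.71 ± 0.13 (n = 5) in old apigenin mice. Regulatory members had 11.41 ± 0.04, 11.43 ± 0.09, 11.44 ± 0.09 and 11.50 ± 0.10. The groups overlapped for both. The core minus the regulatory mean, which is used only to compare libraries since it also depends on gene length, was -0.88 ± 0.07, -0.84 ± 0.04, -0.83 ± 0.06 and -0.79 ± 0.04 in the same order. Its range was -0.98 to -0.83 in young vehicle and -0.85 to -0.75 in old apigenin mice, so these 2 groups overlapped narrowly. No test is given, since the score is built over the members.

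Psma8, near its counting limit, moved this score. Without it, an alternative chosen after the data were seen, core minus regulatory was -0.40 ± 0.08 in young vehicle, -0.34 ± 0.02 in young apigenin, -0.37 ± 0.05 in old vehicle and -0.33 ± 0.06 in old apigenin mice. The old vehicle libraries then ranged from -0.44 to -0.29 and the old apigenin libraries from -0.43 to -0.26. The lowest of all, -0.51, was young vehicle replicate 2, in which the core was low and the regulatory members were not. The ranges of the 4 groups overlapped, and young apigenin minus young vehicle, 0.06, was about as large as the SD within groups, 0.06.

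**Figure D4:**
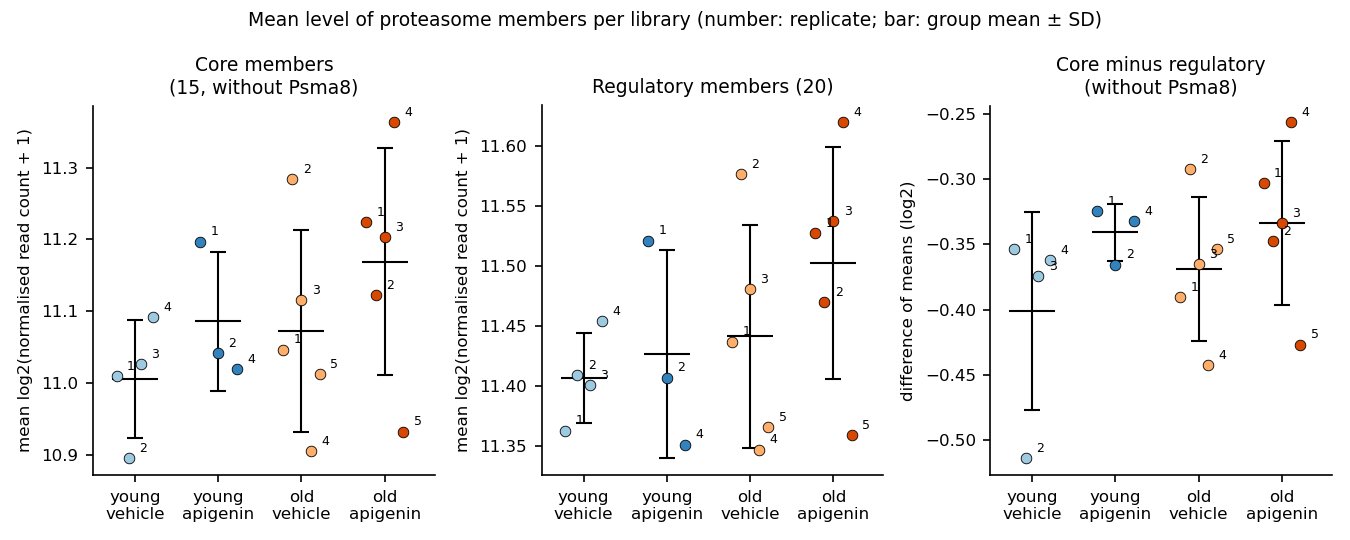
Mean log2(normalised read count + 1) over the 15 core members without Psma8, over the 20 regulatory members, and their difference, for the 17 libraries (points with replicate number; bars are group mean ± SD). Old vehicle 2 and old apigenin 4 are high in the first 2 panels, old vehicle 4 and old apigenin 5 are low, and the 4 groups overlap in each panel.

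The largest pattern among the members lay between mice of the same group. Old apigenin replicate 4 had the highest value of its group for 29 of 36 members and replicate 5 the lowest for 34. In old vehicle mice replicate 2 was highest for 29 and replicate 4 lowest for 22. In young apigenin mice replicate 1 was highest for 32 and replicate 4 lowest for 25. In young vehicle mice replicate 4 was highest for 23, and the lowest values were divided, with 16 in replicate 2 and 14 in replicate 1. Over the 17 libraries the core mean without Psma8 ranged from 10.89 to 11.36, a 1.38-fold range, and the regulatory mean from 11.35 to 11.62, a 1.21-fold range.

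As deviations from group means over the 17 libraries, members correlated with each other at a median Pearson r of 0.83 within the core without Psma8, 0.71 within the regulatory members and 0.72 between both. The median over pairs of all tested genes was 0.03. All these libraries share the scaling of the table, and the values are a description. The beta ring was closest, with a median of 0.89 over 21 pairs, and the ATPase ring had 0.82 over 15. The base scaffolds and receptors Psmd1, Psmd2 and Psmd4 had 0.89 over 3 pairs and the lid 0.69 over 28. The assembly chaperones had 0.27. Each member was also set against the mean of the other members of its own part, core or regulatory. In all, 30 of 36 correlated with it at more than 0.7, led by the ATPase gene Psmc2 (0.97).

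Members outside this common variation were few. Psmd11 had r = -0.33 with the mean of the other regulatory members. It had the smallest SD within groups (0.05), 1.5 times its counting SD. In old apigenin replicate 5, where 34 members were lowest, Psmd11 was at its highest value, 1989. In old vehicle replicate 4 it was also the highest of its group. Psma8 had r = -0.38 with the mean of the other core members, at counting error. Psmd10, the chaperone also called gankyrin, had 0.45, Psmd5 0.59, Psmc6 0.61 and Psma5 0.66, each with the other members of its part.

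**Figure D5:**
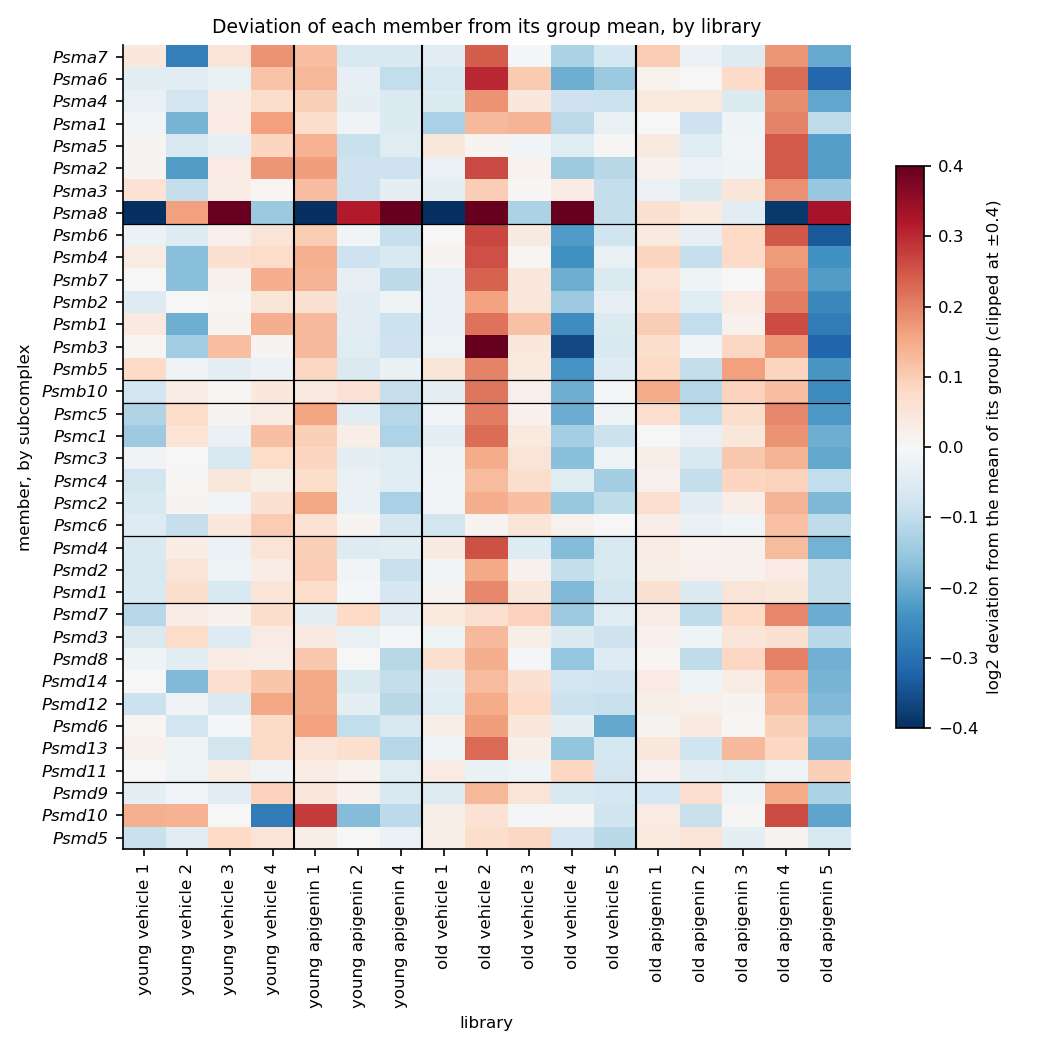
Log2 deviation of each of the 36 members (rows, by subcomplex) from the mean of its group in the 17 libraries (columns), clipped at ±0.4. Columns of 1 colour show that most members moved together within a mouse, for instance old vehicle 2 (high) and old apigenin 5 (low), while Psmd11, Psmd10 and Psma8 differ.

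The core moved farther than the regulatory members. Its deviation, without Psma8, was the larger in 13 of 17 libraries, and both had the same sign in 14. The median SD within groups was 0.14 over the core without Psma8, 0.11 over regulatory members and 0.16 over all tested genes. The 5 members Psma6, Psma8, Psmb1, Psmb3 and Psmd10 had an SD above that median of all genes. Core transcripts were also shorter, with a median of 1165 bases against 1710. Across the 35 members other than Psma8, Spearman's rho of transcript length with this SD was -0.65, across the 20 regulatory members -0.70, and across the 15 core members -0.27. The part of length in this difference was not tested.

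Other gene groups moved in the same libraries. The mean over 81 ribosomal protein genes had the sign of the core deviation in 16 of 17 libraries, and that over 77 oxidative phosphorylation genes in 14. Ribosomal protein genes reached 12.33 in old apigenin replicate 4 and 11.74 in old vehicle replicate 4, the highest and lowest of all 17. Their pairs had a median r of 0.89, those of oxidative phosphorylation genes 0.80, of the chaperonin CCT 0.88, of eIF3 0.76 and of the COP9 signalosome 0.57. Each of these medians except that of the COP9 signalosome was above the median within the regulatory members. The tested genes outside the set with a pattern most like the core mean were Ndufv2 (r = 0.98), Ndufb8 (0.97), Gpx4 (0.96), Cyc1 (0.96) and Mgst3 (0.96). Most like the regulatory mean were Rab4b (0.97), Ptges2 (0.96), Cct2 (0.96), Atp5o (0.96) and Tmx2 (0.96), each over 17 libraries.

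Marker levels stood beside these libraries. The 9 hindbrain markers had a mean log2 level of 6.78 in old vehicle replicate 2 and 6.74 in old apigenin replicate 4, where members were high, and of 4.19 and 3.95 in old vehicle replicate 4 and old apigenin replicate 5, where members were low. In old apigenin replicate 3, however, it was 1.07, with the mean of the core without Psma8 (11.20) and that of the regulatory members (11.54) above those of the group. In old vehicle replicates 1 and 3 it was 1.90 and 1.46, with both means between those of replicates 4 and 2. The list ranged from 5.47 to 6.89 in young vehicle, 3.83 to 6.89 in young apigenin, 1.46 to 6.78 in old vehicle and 1.07 to 6.74 in old apigenin mice, and Hoxb5 was at 0 in old vehicle replicate 3 and old apigenin replicate 3. The lowest regulatory mean, in old vehicle replicate 4, fell in the library with the fewest reads, 28171596, but old apigenin replicate 5, low for 34 members, had 34097814. The part of tissue composition, depth and RNA quality in this variation was not tested.

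Other genes of the pathway came from fixed lists, whose counts stand beside the 3.93% of all genes that passed with age in vehicle mice, 1.76% in apigenin mice and 12.1% in the pooled age comparison. Of 5 further assembly factors measured, none passed in any comparison; Psmg4, a core assembly chaperone, had the smallest p with age in vehicle mice, at 0.26 ± 0.13 (SE; adjusted p = 0.279). Of 5 activators and inhibitors, 1 passed: Psmf1, which encodes the proteasome inhibitor PI31, rose by 0.28 ± 0.06 in the pooled age comparison (adjusted p = 0.00806). Of 14 proteasome-associated genes, Ube3c, a ubiquitin ligase bound to the proteasome, fell by 0.12 on the log2 scale in the pooled comparison (adjusted p = 0.0413), and no other passed.

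Of 7 genes that regulate subunit transcription, Nfyb, a subunit of the CCAAT-binding NF-Y, rose in old vehicle mice by 0.23 ± 0.06 (adjusted p = 0.0329), from 1215 ± 108 (SD, n = 4) to 1427 ± 51.2 (n = 5). Nfe2l2, the stress factor Nrf2, rose in the pooled comparison by 0.24 ± 0.07 (SE; adjusted p = 0.0228). Nfe2l1 had a difference of -0.01 ± 0.05 in vehicle mice. Of 9 ubiquitin pathway genes, Uba6, an alternative ubiquitin-activating enzyme, fell by 0.44 on the log2 scale in old vehicle mice (adjusted p = 0.0461), and Ufd1l, a cofactor of the segregase Vcp, rose by 0.15 ± 0.04 in the pooled comparison (adjusted p = 0.025).

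The lid shares its architecture with the COP9 signalosome and eIF3. Of 9 COP9 genes, Cops2 rose with age in apigenin mice by 0.33 ± 0.06 (adjusted p = 0.00898) and in the pooled comparison by 0.26 ± 0.04 (adjusted p = 0.000788), whereas its lid counterpart Psmd11 had -0.02 ± 0.05 and an adjusted p of 0.891 in apigenin mice. Of 12 eIF3 genes, 4 rose in the pooled comparison, namely Eif3c, Eif3e, Eif3f and Eif3m, by 0.11 to 0.31, and none fell, where 12.1% of all genes passed in either direction. None of the 8 CCT genes passed; Cct5 and Cct8 had the smallest p with age in vehicle mice, with adjusted p-values of 0.55 and 0.689.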

How the data were processed

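Per the labels, polyA-selected RNA from whole mouse brain was sequenced, 1 library per mouse. The authors deposited a table of normalised signal, each value a read count divided by 1 factor per library; 100% of values were whole reads within 0.01 of a read once that factor was undone. STAR, DESeq2 and mm10 appear in the submitters' processing notes, without versions; for the counting program, the annotation and the use of strand, the sources used here give nothing. Of 24411 rows, the last 6 were left out. Over the rest, the values of each of the 17 libraries used summed to between 33551002 and 33553860, a near-equal total. With this scaling the median age difference over all tested genes in vehicle mice was 0.039, and with edgeR, which rescales by TMM, 0.006. Counts of members above 0 depend on this choice. In young apigenin replicate 3 the values are displaced against the gene names beyond Mrpl15 (r = 0.81 with the mean of the other libraries, 0.995 once realigned), and the library was left out.

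The 17 other libraries were fitted with limma 3.58.1 (R 4.3.3) on log2(value + 1), with a mean-variance trend and 4 group means, for 15808 genes with a mean of at least 10, and p-values were Benjamini-Hochberg adjusted over all of them, with a threshold of 0.05. Values in every library are given for members that passed, the 3 core and 3 regulatory members with the smallest p in each comparison of 2 groups, Psmb5, Psmb6, Psmb7, Psmb10, Psmd14, and the members highest and lowest per kilobase, beside Psmb8 and Psmb9. The members, lists and named genes were chosen with earlier results of these data known. Within-group library pairs differed by more than sampling noise (chi-square per degree of freedom at least 3.92 over 29 pairs). Transcript lengths and positions came from GENCODE M21, promoters from RefSeq. Alternatives were edgeR 4.0.16 and DESeq2 1.42.0 on the recovered reads, quantile normalisation, a pseudocount of 10, no filter, a mean of at least 100, only the 2 groups compared, a replicate block, the realigned library, each library left out, and sets without Psmb10, Psmd5, Psmd9 and Psmd10. The fit was tested on simulated data.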

Additional observations from a re-analysis of the deposited data

Results flagged for a closer look

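Among 117 groups of 4 or 5 values checked for a single library far from the others, 2 had one, where chance flags about 1 group in 20. For Psma6, an alpha subunit, young vehicle replicate 4 had a normalised read count of 2309.9, and the other young vehicle libraries lay between 2069.6 and 2088.7. For Psmd2, a scaffold of the base, old apigenin replicate 5 had 7773.4, and the other old apigenin libraries lay between 8410.2 and 8495. Neither member passed a test in any comparison.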

How the results depend on the processing

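The count of 622 genes called with age in vehicle mice became 388 with the replicate block, 382 without old vehicle 2 and old apigenin 4 (chosen after the data were seen), 402 with only the 2 groups compared and 1028 with DESeq2, and 246 to 708 when 1 library was left out. With age in apigenin mice 278 became 562 with the realigned library, 130 with only the 2 groups and 485 with DESeq2, and 149 to 387 without 1 library; the 1 regulatory member called, Psmd9, became 0 without the filter, with quantile normalisation, without those 2 libraries, with only the 2 groups, with edgeR, and without the 4 genes that include it, and 0 to 1 without 1 library. In young mice given apigenin DESeq2 called 1 gene. In the pooled age comparison 2 core members were called with the realigned library and 0 to 2 without 1 library, with 1240 to 2213 genes and 1 to 2 regulatory members; without old apigenin 5 these were Psma7, Psmb4, Psmd13 and Psmd9, and without old vehicle 4 Psmb3, Psmb4, Psmd13 and Psmd9. Without the 4 genes 0 regulatory members were called there, which was fixed in advance since Psmd9 is 1 of them. Small age differences in vehicle mice changed sign: Psmb5 to -0.0040 without the 2 libraries, Psmb6 to 0.0038 and Psmb7 to 0.0201 with the replicate block, and without 1 library they spanned -0.0040 to 0.1044, -0.1152 to 0.0081 and -0.0738 to 0.0340. The causes were not tested. Replicate numbers did not pair libraries (r between same-numbered libraries -0.25 to 0.31, 4 of 22 pairs over 0.1), so the replicate block is only an alternative; with it 31 of 36 members were above 0 with age in vehicle mice. The SD within groups exceeded the counting SD for 35 of 36 members, and for Psma8 it did not.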
